A study of Danio rerio with 6 samples.

Results

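Larval zebrafish were pooled in 6 RNA samples, 3 wild type and 3 dscaml1 mutant, each numbered 1 to 3. The 2 pools numbered 2 (wild-type replicate 2 and mutant replicate 2) differed from the other 4. The differences included many genes of several organs, of the clock and of the cell cycle. The comparison described here set these 2 of 6 libraries against replicates 1 and 3 of both genotypes, with genotype held as a covariate, over the 21302 of 31901 genes whose mean normalized count was at least 5. In the replicate 2 pools of either genotype the digestive enzymes of the pancreas were reduced to traces. With both genotypes in the fit, 40 of 47 gut genes, 49 of 83 muscle genes and 25 of 54 clock genes were lower, against 17.8% of all genes tested, and 25 of 38 red cell genes and 67 of 126 cell cycle genes were higher, against 13.7%. The replicate numbers come from the sample titles, and no label says what the numbers 1, 2 and 3 stand for. Number 2 was picked because its libraries were already known to stand apart, so the difference was not predicted. The adjusted p-values below set it against the spread left among the pools after genotype and replicate 2 were fitted. That fit counted the 6 pools as independent. If a number stands for something its 2 pools shared, the comparison is 1 unit against 2. The p-values then do not measure whether the difference would recur.

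All pools came from progeny of parents heterozygous for dscaml1 vt1, an allele in which a small deletion shifts the reading frame of dscaml1, a cell adhesion molecule of the nervous system. The fish had a mixed AB and TL background. The wild-type pools were siblings of the homozygous mutants, received no treatment and were raised with them under standard light and temperature conditions, and all were collected at 3.5 to 4 days after fertilization, when sex is undifferentiated. Each pool held 6 to 11 larvae, and the study called the 3 pools of a genotype biological replicates. The labels describe the tissue as whole animals, whereas the study's methods state that RNA came from the front part of each larva and that the rear part was used for genotyping. Neither source gives the clutch, the collection day or hour, the exact age or the number of larvae for a single pool. These properties cannot be told apart from the replicate number here.

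The deposited values were read counts divided by a size factor, called normalized counts below, and 18725190 to 23516860 reads per library lay behind them. In the replicate 2 pools these were 21863982 and 19617255 reads, inside the range of the others, and mitochondrial transcripts made up 1.94% and 2.22% of the normalized counts against 2.40% to 2.58% in the other 4. On the log2 scale, 70.9% of the variance among libraries lay on a principal component that placed the replicate 2 pools at 88.2 and 104.4 and the other 4 between -53.6 and -44.5. The targeted gene, dscaml1, gave normalized counts of 395 and 336 in the replicate 2 pools and 333, 375, 399.6 and 355 in the others, and since its level did not separate the genotypes it gives no check of the labels. Markers of many organs were present in every library, which does not tell the tissue descriptions apart. The tested posterior hox genes summed to 164 to 329 normalized counts per library and the anterior ones to 1577 to 3709. Which description holds was not tested.

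Throughout, a pair of values gives wild-type replicate 2 and then mutant replicate 2, and a set of 4 values gives wild-type replicates 1 and 3 and then mutant replicates 1 and 3. The log2 difference is replicate 2 minus the mean of replicates 1 and 3, fitted with limma on log2(normalized count + 1), which understates the change of genes with few reads. A gene was called higher or lower at a Benjamini-Hochberg adjusted p under 0.05 over all 21302 genes. By this rule 2917 genes (13.7%) were higher and 3791 (17.8%) were lower in replicate 2, or 6708 (31.5%) in all. With at least a 2-fold change, 654 (3.07%) were higher and 2080 (9.76%) lower. Both replicate 2 libraries lay above the other 4 in 5238 genes (24.6%) and below them in 5557 (26.1%). The median difference over all genes was -0.0048 on the log2 scale, and 0.0084 with TMM library sizes. An exact permutation test of a single gene that ignores genotype cannot go below p = 0.0667 with 2 against 4 libraries. A permutation within genotypes has fewer arrangements and a higher limit. These shares are the background for each count that follows. When mutant replicate 2 was left out the count of higher genes fell to 436 and that of lower genes to 1433, without wild-type replicate 2 these were 992 and 2143, and without wild-type replicate 3 the higher genes numbered 1939.

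The exocrine pancreas makes digestive enzymes in acinar cells, stores them as inactive precursors in zymogen granules and releases them into the gut. In zebrafish larvae this tissue differentiates before the onset of feeding. Of 34 gene identifiers matched to the pancreas list, 32 passed the filter, 28 were lower in replicate 2 and 0 were higher, against the 17.8% of all genes that were lower. All 28 passed the 2-fold limit, and the median difference of the list was -8.51 on the log2 scale. The other 2 identifiers fell under the filter, and 6 symbols of the list were not matched. The listed genes made up 1.21% to 2.26% of all normalized counts in replicates 1 and 3, but 0.00759% and 0.00464% in the replicate 2 pools. In RNA from pooled larvae, fewer cells of a type and less RNA per cell cannot be told apart.

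The trypsins and chymotrypsins, proteases that cut dietary protein, were lower in 7 of 7 cases. prss1 (ENSDARG00000042993), a trypsin, had normalized counts of 157 and 53 in replicate 2 and 26191, 35920.2, 22828 and 21735 in the other pools. Both replicate 2 values lay far under every other pool. The log2 difference was -8.15 ± 0.24 (SE, limma adjusted p = 1.30e-06). ctrb1, a chymotrypsin precursor, gave 53.04 and 25.5 against 22877, 29882, 17286 and 14000.3, a log2 difference of -9.06 (limma adjusted p = 1.26e-07). The deepest loss of this group was in ctrb.2, with 4.61 and 2.55 against 9294, 13332, 8404 and 6105. Several of these genes are tandem copies with similar sequence, so reads may be shared among them and the values of single copies are less certain than that of the group.

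Elastases, which cut small neutral residues, were lower in 6 of 6 genes, and carboxypeptidases, which trim the ends of peptides, in 4 of 4. ela2l fell from 8853, 13482, 8333 and 5925 in the other pools to 9.8 and 4.47 in replicate 2, a log2 difference of -10.15 (limma adjusted p = 1.83e-07). cpa5 fell from 20029.5, 26956, 13235 and 6828 to 47.3 and 33.8, with the lowest of the other pools, mutant replicate 3, still far above both replicate 2 pools. Among the lipases and amylases 5 of 6 were lower. cel.1, a bile salt-activated lipase, had 12.1 and 3.83 against 7189, 7334, 4781 and 3238, and amy2a, which digests starch, 12.7 and 19.8 against 10557, 14335, 8509 and 5092. Neither gene had overlapping groups. The exception was amy2al1, a low gene with 11.0 and 7.66 against 15.11, 2.96, 11.7 and 8.1 and an adjusted p of 0.88 in limma.

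The zymogen granule and secretory genes were lower in 5 of 5 cases. pdia2, a protein disulfide isomerase of the acinar endoplasmic reticulum, kept the largest remainder of this group, 127 and 40.9 against 5193, 4206, 3453 and 1759.8 (log2 difference -5.53, limma adjusted p = 1.86e-05). c6ast4, an astacin-type metalloprotease, had 1.73 and 4.47 against 4819, 7364, 4297 and 3659. Syncollin, a granule membrane protein, is encoded by sycn.1 and sycn.2, and sycn.1 was at 0 in both replicate 2 libraries against 6.97, 12.4, 13.0 and 10.3. The elastase cela1.3 was also at 0 in both, so the folds of these 2 genes have no measured size. A bound of 3 reads over the group for them gave the same list median of -8.51. As 2 of 32 genes can move a median little, this is no check of the list. Over the 28 enzyme and secretory genes tested, the highest replicate 2 value was 157 normalized counts (prss1 in wild type).

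The 4 transcription factors of the list did not follow the enzymes as a group. rbpjl, a subunit of the acinar PTF1 complex, was lower, with 1.73 and 1.92 against 37.2, 33.1, 14.9 and 6.62 (log2 difference -2.82, limma adjusted p = 0.0058). bhlha15, which in mice organizes the secretory apparatus, had 1.73 and 3.83 against 12.2, 11.8, 9.1 and 4.42 and missed the threshold at an adjusted p of 0.07 in limma. ptf1a, which specifies the pancreas and is also made by neurons of the retina and hindbrain, had 47.3 and 54.3 against 58.1, 48.5, 39.0 and 43.4. nr5a2, a nuclear receptor, had 141 and 148 against 206, 153, 151 and 89.1, and in both of these genes the groups overlapped. The pancreas counts changed little when a library was left out, with 27 to 29 genes lower across the 6 omissions.

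**Figure D1:**
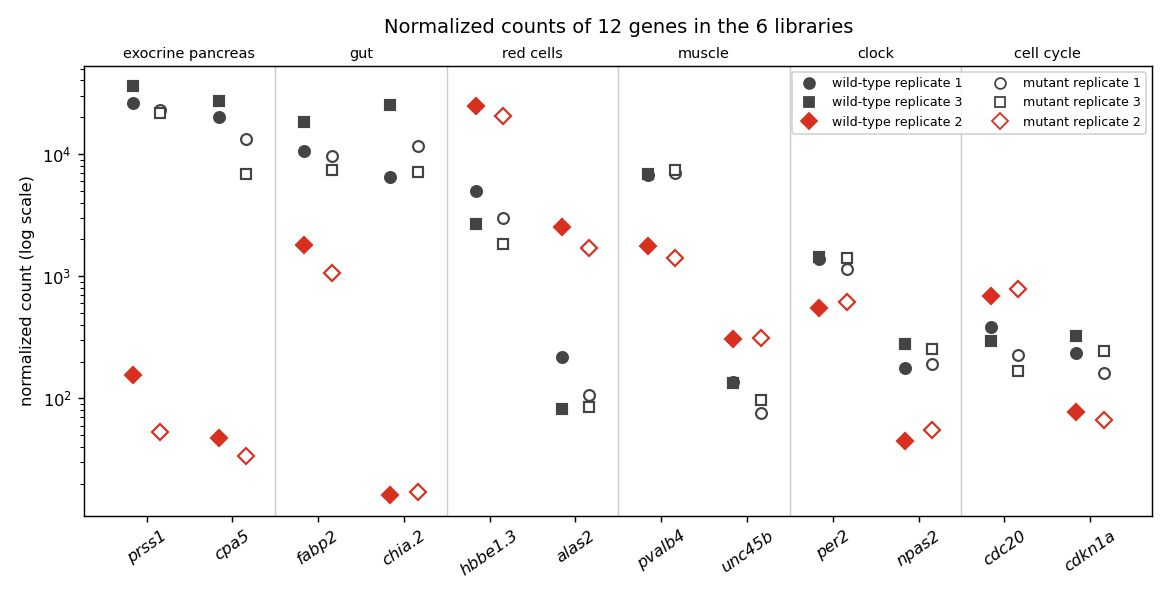
Normalized counts (log scale) of 12 genes of the 6 programmes in each library. Diamonds mark replicate 2, filled for wild type and open for mutant, and circles and squares mark replicates 1 and 3. The red diamonds of both genotypes lie beyond all 4 other libraries for each of these picked genes. Other members of the programmes, such as ptf1a and per1b, do not separate in this way.

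The larval gut takes up fat, sugar, amino acids and peptides through the brush border of its enterocytes, and a hind segment of lysosome-rich enterocytes internalizes whole protein. Of 47 gut genes tested among 50 matched, 40 were lower and 0 were higher, with 39 past the 2-fold limit and a median log2 difference of -2.97. The 3 identifiers under the filter were apoa4b.1, apoa4b.2 and apoa4b.3, listed at 0 in all 6 libraries, and the reason was not tested. The list made up 0.313% to 0.742% of normalized counts in replicates 1 and 3 and 0.100% and 0.0765% in replicate 2. Both replicate 2 pools lay under all others for 41 of the 47 genes.

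Brush border digestive genes were lower in 16 of 17 cases. chia.2, an acidic chitinase of the foregut, had 16.1 and 17.2 in replicate 2 against 6499, 25034, 11638 and 7149.5. Wild-type replicate 3 was the highest library and both replicate 2 pools lay far under the other 4 (log2 difference -9.25 ± 0.48 SE, limma adjusted p = 2.24e-05). vil1, the actin bundler of microvilli, had 92.8 and 21.1 against 4002, 4754, 2149 and 732 (log2 difference -5.68, limma adjusted p = 5.83e-05). In both genes mutant replicate 3 was the lowest or near the lowest of the other pools, still above replicate 2. alpi.1, an alkaline phosphatase, was the exception, with 223 and 252 against 258, 175, 168 and 163 and an adjusted p of 0.24 in limma. It overlaps its copy alpi.2 on the genome, so the counts of the pair are uncertain.

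Nutrient transporters were lower in 8 of 9 cases. slc5a1, the sodium-coupled glucose transporter, had 6.92 and 0.639 against 637, 1130.4, 793 and 339 (log2 difference -7.53, limma adjusted p = 4.33e-05), and slc15a1b, a peptide transporter, 5.19 and 7.66 against 636, 1467, 1079 and 326. The lipid genes were lower in 8 of 9 cases and kept more of their RNA. fabp2, the intestinal fatty acid binding protein, had 1802 and 1067 against 10658, 18178, 9712 and 7399 (log2 difference -2.97 ± 0.21 SE, limma adjusted p = 8.83e-05). mttp, which loads lipid onto lipoproteins in gut, liver and yolk cells, had 522 and 252 against 1773, 1963, 1616 and 1073. fabp6, a bile acid binding protein of the hind gut, had 1.73 and 0.639 against 947, 115, 342 and 29.4, and its 4 other pools differed among themselves, wild-type replicate 1 being the highest and mutant replicate 3 the lowest. apoa4a, a lipoprotein, went against the group in value, with 455 and 298 against 141, 289, 175 and 249.5, without passing the test (limma adjusted p = 0.073, and 0.013 with the replicate block).

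The lysosome-rich enterocyte genes were lower in 3 of 5 cases. cubn, a receptor for protein uptake, had 106 and 49.8 against 426, 231, 161 and 66.2 (log2 difference -1.30, limma adjusted p = 0.036), with mutant replicate 3 between the replicate 2 pools, so that the groups overlapped. lrp2b and dab2, a receptor and an adaptor of the same route, missed the threshold at limma adjusted p-values of 0.17 and 0.11. With all 3 replicate numbers as a replicate block all 5 were called lower, whereas 1 was called without replicate 1 or replicate 2 of either genotype and with no genotype term. Of the transcription factors 5 of 6 were lower, and 3 without mutant replicate 2. cdx1b, a hind gut homeobox factor, had 58.2 and 5.11 against 173, 232, 139 and 69.2, and hnf4a, a nuclear receptor of gut and liver, 94.0 and 46.6 against 247, 345, 294 and 168. gata5, which acts in early endoderm, heart and gut, had 203 and 139.8 against 192, 205, 168 and 104, with overlapping groups. agr2, a disulfide isomerase of mucus cells and the only tested gene of the secretory group, had 1275 and 1315 against 1958, 1434, 1591 and 1449 (limma adjusted p = 0.15). Across the 6 omissions of 1 library, 34 to 40 gut genes were lower.

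Embryonic red cells of the zebrafish carry a set of globins that is later replaced by adult globins, and heme for both is made by a pathway that begins with the enzyme encoded by alas2. The red cell list moved up in replicate 2. Of 38 genes tested among 44 matched, 25 were higher, against 13.7% of all genes, and 1 was lower, with a median log2 difference of 1.53. Of the embryonic globins 10 of 11 were called higher, and in 11 of 11 both replicate 2 pools lay above all others. Their share of all normalized counts was 0.797% and 0.634% in replicate 2 and 0.0725% to 0.155% in the other pools.

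hbae3, an embryonic alpha globin, had normalized counts of 40188 and 30424 in replicate 2 and 9352, 4629, 5056 and 3963 in the others. Wild-type replicate 1 was the highest of the others but lay well below both replicate 2 pools (log2 difference 2.69 ± 0.26 SE, limma adjusted p = 3.42e-04). hbbe1.3, an embryonic beta globin, had 24568 and 20344 against 4994, 2697, 3014 and 1847 (log2 difference 2.93, limma adjusted p = 3.26e-04). The group means differed 7.16-fold. hbbe3 (ENSDARG00000038147, chromosome 12, 20339413 to 20340543) was near 0 outside replicate 2, with 1323 and 431 against 1.74, 0, 1.3 and 0. Its fitted log2 difference of 8.90 depends on the pseudocount, and it passed the filter on the mean only through the replicate 2 pools. hbbe1.1 was the globin that missed the test: it had 4425 and 6605 against 119.7, 683, 11.7 and 1539.7, with a wide spread among the other pools (limma adjusted p = 0.064, and 0.0045 with the replicate block). The globin genes are clustered copies, and hbae5 and hbbe2 overlap in the annotation, so the split of reads among them is uncertain. All 5 identifiers of adult globins fell under the filter, with at most 3.19 normalized counts (hbba2 in mutant replicate 2).

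The red cell genes outside the globins were higher in part. Of the membrane and enzyme genes 7 of 9 were higher. slc4a1a, the anion exchanger of the red cell membrane, had 2644 and 1893 against 190.0, 79.8, 178 and 52.3 (log2 difference 4.35, limma adjusted p = 7.28e-04). cahz, a carbonic anhydrase of red cells, had 2650.2 and 2213 against 855, 533, 715 and 624, and epb41b, a membrane skeleton protein, 564 and 437 against 128, 74.5, 61.7 and 55.9. All replicate 2 values of these genes lay above the others. rhag, a gas channel of the Rh family, did not follow, with 4233 and 3249.6 against 5008, 4238, 4046 and 4256 (limma adjusted p = 0.15).

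Of 13 heme and iron genes 5 were higher and 1 was lower, with 2 higher when either replicate 2 library was left out. alas2 (chromosome 8, 21353878 to 21369028) had 2523 and 1704 against 219, 81.6, 107 and 85.4 (log2 difference 4.18 ± 0.34 SE, limma adjusted p = 1.62e-04). Its annotated span overlaps the end of ela2l (21366771 to 21372485), an elastase that moved in the opposite direction, and the sources used here do not say how reads in the overlap were counted. tfr1a, the transferrin receptor that brings iron into red cell precursors, had 338 and 218 against 142, 137, 84.5 and 60.4. slc25a38a, a mitochondrial glycine carrier for heme synthesis, was the member that fell, with 9.22 and 3.19 against 67.4, 68.6, 55.9 and 122.9 (log2 difference -3.54, limma adjusted p = 0.001). Of the regulators, gata1a, the master transcription factor of red cells, had 34.6 and 42.8 against 5.23, 7.69, 3.9 and 7.36, and klf1, which activates globin genes, 62.3 and 63.9 against 11.6, 9.46, 11.7 and 12.5. Of the 5 regulators 3 were higher, and fewer were without mutant replicate 2. With a minimum mean of 50, gata1a and klf1 were not tested and 1 regulator was higher. epor and nfe2 missed the threshold, with limma adjusted p-values of 0.11 and 0.22. Across the 6 omissions 18 to 25 red cell genes were higher.

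**Figure D2:**
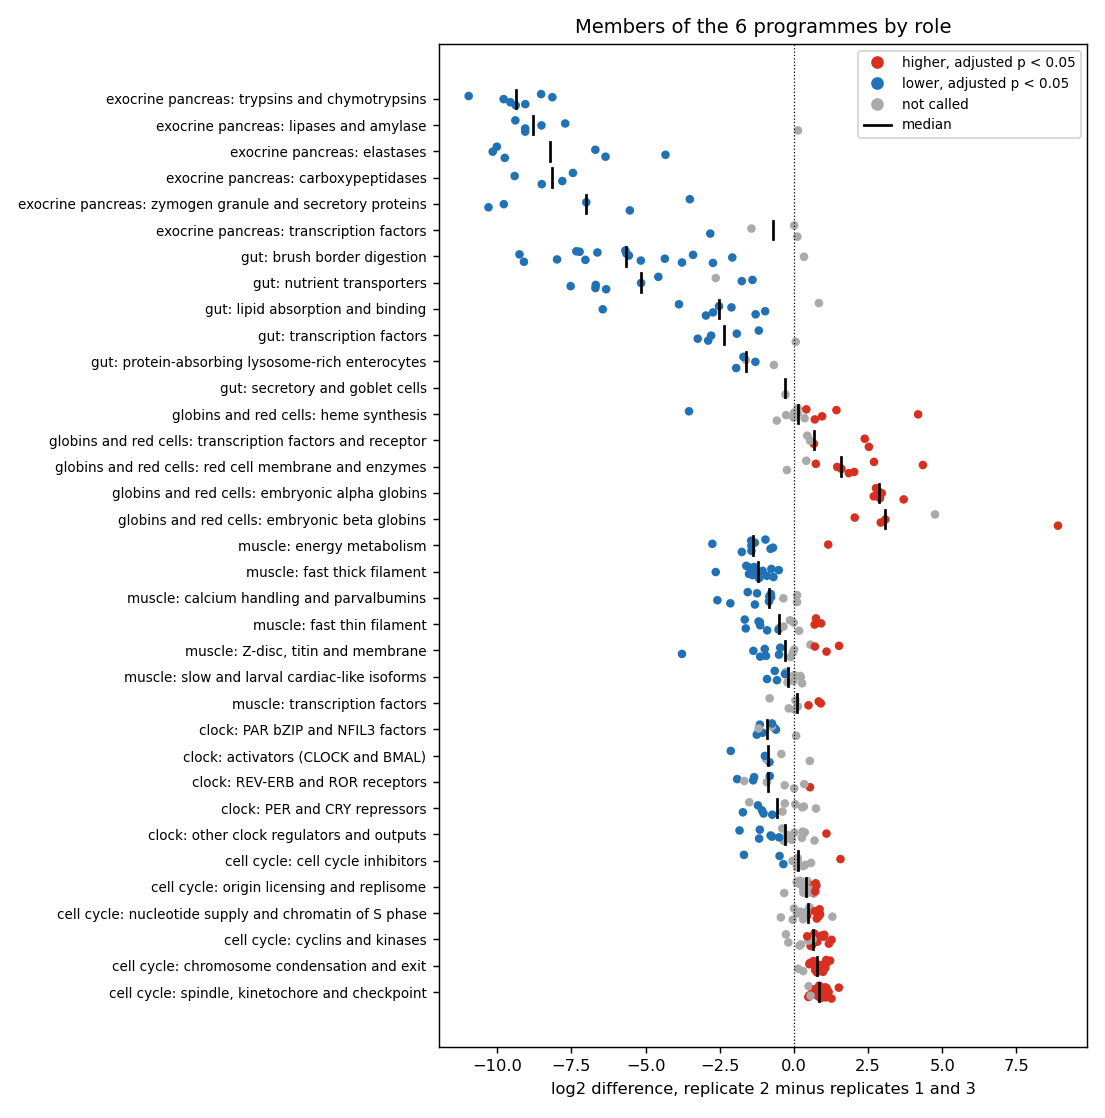
Log2 difference of replicate 2 from replicates 1 and 3 for each tested gene of the 6 programmes, grouped by role. Points are genes, red where called higher, blue where called lower and grey where not called, and black bars are medians. The enzyme groups of the pancreas lie at the left end and the embryonic globins at the right end, while the transcription factors of muscle lie near 0.

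Skeletal muscle contracts as myosin thick filaments pull on actin thin filaments, with calcium released and recovered by the sarcoplasmic reticulum. By the age sampled the larvae swim with fast muscle as the bulk of the trunk. Of 83 muscle genes tested among 87 matched, 49 were lower and 10 were higher in replicate 2, with a median log2 difference of -0.71. The list held 4.45% to 5.03% of normalized counts in replicates 1 and 3 and 2.86% and 1.89% in replicate 2. The count of lower genes rested more on mutant replicate 2, and without it was 25, while without wild-type replicate 2 it was 42.

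The fast thick filament genes were lower in 13 of 13 cases, and in 6 without mutant replicate 2. mybpc2a, a fast myosin binding protein, had 58.8 and 35.1 against 399, 404, 240.4 and 178 (log2 difference -2.64, limma adjusted p = 5.74e-05). mylz3, a fast myosin light chain, had 12706 and 6475 against 22164, 22496, 25329 and 25461, with mutant replicate 2 lower than wild-type replicate 2 and both under the others. The myhz1 heavy chains are near-identical tandem copies, and their counts are uncertain one by one. Calcium handling and parvalbumin genes were lower in 9 of 12 cases, and in 4 without mutant replicate 2. pvalb4, a calcium buffer of fast fibres, had 1764 and 1407 against 6785, 6797, 6932 and 7401 (log2 difference -2.15 ± 0.12 SE, limma adjusted p = 2.95e-05), and atp2a1l, a calcium pump of the sarcoplasmic reticulum, 1517 and 766 against 5148, 7296, 6651 and 6976. pvalb1, another parvalbumin, had 47923 and 34289 against 106402, 110346, 131482 and 131739.5. Energy genes were lower in 9 of 10 cases, with ckma, a muscle creatine kinase, at 14239 and 9785 against 26055, 26109, 41216 and 37839 (log2 difference -1.44, limma adjusted p = 0.0032). The tenth, pfkmb, a muscle phosphofructokinase, was higher, with 295 and 266 against 145, 135, 115 and 110.4.

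Where called, most thin filament and Z-disc genes were lower. The shares called lower were 46.7% and 50%, against 17.8% of all genes. Those called higher were 20% and 21.4%, against 13.7%. Of 15 thin filament genes 7 were lower and 3 higher, and 0 were higher when either replicate 2 library was left out. tnni2b.2, a fast troponin I, had 1608 and 1013 against 3930.3, 3995, 4116 and 4091, whereas actc1a (ENSDARG00000042535), an actin, had 2007 and 1438 against 1150.3, 843, 929 and 732. A further identifier with the symbol actc1a was under the filter. Of 14 Z-disc, titin and membrane genes 7 were lower and 3 higher, and without mutant replicate 2 these counts were 3 and 1. desmb, a desmin, had 34.6 and 14.0 against 338, 385, 369.7 and 207 (log2 difference -3.78, limma adjusted p = 1.08e-04). unc45b and smyd1b, a chaperone and a methyltransferase needed for myosin folding and assembly, were higher, unc45b with 307 and 314 against 137, 132, 76.7 and 97.2 (log2 difference 1.52, limma adjusted p = 0.0013). smyd1a, the other copy of that methyltransferase, moved the other way, with 449 and 234 against 974, 683, 968 and 773. Slow muscle genes were lower in 4 of 11 cases (2 without any 1 of the wild-type pools, 1 without mutant replicate 2), the largest in tnni1d (389 and 269 against 797, 636, 511 and 526). Among 8 muscle transcription factors 3 were higher and 0 lower. myog, which drives myoblast differentiation, had 274 and 319 against 174, 159.6, 165 and 165 (log2 difference 0.83, limma adjusted p = 0.0035), and myod1 155 and 163 against 88.3, 87.5, 65.6 and 101. Without mutant replicate 2 none of these 3 factors was called, and without wild-type replicate 2 the count was 1.

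The circadian clock is a feedback loop in which CLOCK and BMAL proteins activate the PER and CRY repressors, with a further loop through REV-ERB and ROR receptors and outputs through PAR bZIP factors. In zebrafish, light also acts directly on most tissues, and per2 and cry1aa are among the genes it induces. Of 54 clock genes tested among 55 matched, 25 were lower and 2 were higher in replicate 2, with a median log2 difference of -0.74. The count of lower genes was 10 without mutant replicate 2 and 14 without wild-type replicate 2.

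Among the activators 3 of 6 were lower. npas2, a CLOCK paralogue, had 45.0 and 54.9 against 179, 278, 189.7 and 252, with replicate 3 the highest in either genotype (log2 difference -2.13 ± 0.22 SE, limma adjusted p = 5.23e-04). clockb had 347 and 316 against 564, 708, 542 and 554. Among the PER and CRY repressors 5 of 12 were lower, and 3 without mutant replicate 2. per2 had 545 and 609.8 against 1391, 1449, 1136 and 1408 (log2 difference -1.21 ± 0.13 SE, limma adjusted p = 6.43e-04), and cry1aa 706 and 577 against 1394, 1285, 1298 and 1419 (limma adjusted p = 6.43e-04). For both genes the other 4 pools lay close together and above replicate 2. cry5, a photolyase induced by light, had 73.8 and 74.7 against 172, 151, 148 and 139.

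In other clock genes it was replicate 3, not replicate 2, that stood apart. per1b had 892 and 566 in the replicate 2 pools, and 784, 236, 806 and 217 in the others, so that replicate 3 was the lowest in each genotype. Replicate 3 was also the lowest in each genotype for per3 and cry1ba. per3 had 715 and 631 against 658, 393, 862 and 363, and cry1ba 4775 and 5354 against 5731, 2635, 7019 and 2885. None of these was called, at limma adjusted p-values of 0.37, 0.49 and 0.62, and per1b passed with the replicate block (0.01). cry1bb differed between all 3 numbers, with 449 and 524 in replicate 2, and 1174, 2057, 1094 and 2489.9 in the others, replicate 3 being the highest in each genotype (log2 difference -1.72, limma adjusted p = 0.0073). clocka, with 146 and 109 against 190.0, 351, 162 and 322, was not called (limma adjusted p = 0.06) but passed with the replicate block (0.0019). With that block, as without mutant replicate 1, 5 of 6 activators were lower.

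Of 10 REV-ERB and ROR receptors 4 were lower and 1 was higher, and 1 was lower without mutant replicate 2. nr1d1, a REV-ERB repressor, had 55.9 and 42.1 against 190.0, 135, 365 and 127, with mutant replicate 1 the highest (log2 difference -1.92, limma adjusted p = 0.011). rorcb, a ROR activator, had 570.2 and 619 against 1372, 1803, 1229 and 1710.5 (limma adjusted p = 0.0013). Of the PAR bZIP and NFIL3 factors 7 of 10 were lower (3 when replicate 2 was left out of the wild types, 2 when it was left out of the mutants), among them hlfa with 439.9 and 488 against 1029, 997, 1159 and 1258 (log2 difference -1.25, limma adjusted p = 1.88e-04). tefa, of the same family, had 1109 and 1169.8 against 1095, 967, 1168 and 1111 (adjusted p = 0.63 in limma). Among 16 other regulators and outputs 6 were lower and 1 higher, with 2 lower when either replicate 2 library was left out. nocta, a rhythmic phosphatase, had 272 and 218 against 945, 789, 853 and 902 (log2 difference -1.84 ± 0.13 SE, limma adjusted p = 1.01e-04). ciarta, a repressor of CLOCK and BMAL, was the higher one, with 828 and 714 against 542, 254, 493 and 246, and replicate 3 was again the lowest.

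**Figure D3:**
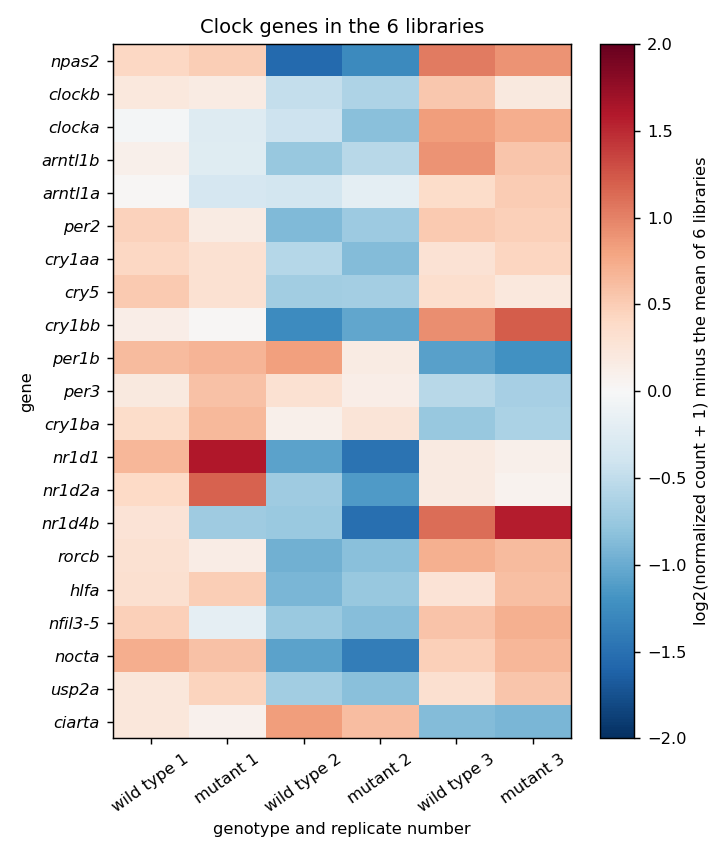
Level of 21 clock genes in each library as log2(normalized count + 1) minus the mean over the 6 libraries, with columns grouped by replicate number. Blue cells are below and red cells above the mean, with colours saturated at 2. The 2 columns of replicate 2 are low for npas2, per2 and nocta, and the 2 columns of replicate 3 are low for per1b, per3, cry1ba and ciarta.

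Dividing cells copy their DNA in S phase with the MCM helicase and the replication machinery and then separate chromosomes on the spindle under the control of cyclin-dependent and Aurora kinases. Of 126 cell cycle genes tested among 128 matched, 67 were higher and 3 were lower in replicate 2, with a median log2 difference of 0.61. Both replicate 2 pools lay above the others for 80 genes. The median difference was 0.44 within wild type and 0.75 within mutants. The count was 6 without mutant replicate 2, 42 without wild-type replicate 2 and 38 with no term for genotype, and the list's median without mutant replicate 2 was 0.44.

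The largest counts were in genes of mitosis. Spindle, kinetochore and checkpoint genes were higher in 24 of 26 cases. cdc20, an activator of the anaphase-promoting complex, had 692 and 781 against 388, 293, 228 and 168 (log2 difference 1.51 ± 0.24 SE, limma adjusted p = 0.0035). nusap1, a spindle protein, had 844 and 711 against 462, 358, 278 and 233 (limma adjusted p = 0.0014). In both genes wild-type replicate 1 was the highest of the other pools and replicate 2 was above it. Chromosome condensation and exit genes were higher in 15 of 17 cases, with mki67, a coat protein of mitotic chromosomes, at 2759 and 2335 against 1809, 1347, 1123 and 739.7. Cyclins and kinases were higher in 14 of 20 cases, with aurka at 214 and 199.9 against 107, 112, 60.4 and 72.9 (log2 difference 1.27) and ccnb1, cyclin B, at 690.1 and 524 against 372, 338, 221 and 179 (limma adjusted p = 0.0015). Without mutant replicate 2 these 3 groups had 2, 1 and 2 genes higher, and with no genotype term 13, 6 and 8. In fits lacking replicate 2 or 3 of the wild type, cyclins and kinases had 8 and 9.

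Among genes of DNA replication, 7 of 36 (19.4%) for origin licensing and the replisome were higher, near the 13.7% of all genes. For nucleotide supply and S phase chromatin 6 of 16 (37.5%) were higher. The difference between roles was not tested. mcm2, a helicase subunit, had 869 and 789 against 619.9, 449, 609 and 347 (log2 difference 0.75, limma adjusted p = 0.043). Replicate 3 was the lowest in each genotype for mcm2 and mcm5, and with the replicate block 19 of 36 were higher. When either replicate 2 library was left out 0 of these 36 were higher, and 1 was when replicate 3 of the wild type was. The S phase chromatin group had 3 in the fit lacking replicate 2 of the wild type and 0 in that lacking replicate 2 of the mutants. rrm2 (ENSDARG00000020711, the higher of 2 identifiers with this symbol), a subunit of ribonucleotide reductase, had 1146 and 762 against 884, 208, 773 and 147, replicate 3 standing far under the others, and was not called (limma adjusted p = 0.2, and 4.09e-04 with the block). Among 11 inhibitors 3 were lower and 1 was higher, and the count of lower ones was 1 in each fit that lacked replicate 2 of either genotype or replicate 3 of the wild type. cdkn1a, the p21 inhibitor, had 77.8 and 66.4 against 236, 323, 161 and 242 (log2 difference -1.69 ± 0.22 SE, limma adjusted p = 0.0013). cdkn1ca, the p57 inhibitor, moved the other way, with 688 and 857 against 307, 235, 226 and 274 (limma adjusted p = 6.26e-04). btg2 and ccng2, both linked to slower division, fell by 0.49 and 0.36 on the log2 scale. The shares of inhibitors called were 27.3% lower and 9.09% higher, against 17.8% and 13.7% of all genes.

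The replicate 2 difference had the same direction in wild types and mutants for most members. Within each genotype the comparison is 1 pool against 2, so it carries no test of its own. Number 2 was picked with both its libraries known to stand apart, so that choice favoured matching signs. The share of matching signs over all genes is not given here. The signs matched for 29 of 32 pancreas genes, 47 of 47 gut genes, 34 of 38 red cell genes, 70 of 83 muscle genes, 49 of 54 clock genes and 117 of 126 cell cycle genes. The medians within wild type and within mutants were -8.45 and -8.30 for the pancreas, -2.88 and -3.47 for the gut, 1.33 and 1.66 for red cells, -0.53 and -0.87 for muscle and -0.59 and -0.79 for the clock. A product term of replicate 2 and genotype in limma called 0 of 21302 genes (0.00%), with 751 at an unadjusted p under 0.05, and edgeR called 0 with 700 unadjusted. This fit had 2 residual degrees of freedom, and a p that missed the threshold does not show that the genotypes were alike. In the fit without the product term, 21 genes were called for genotype. The study used a DESeq2 likelihood ratio test and another threshold and reported more. The count of 21 is therefore no measure of the genotype effect.

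**Figure D4:**
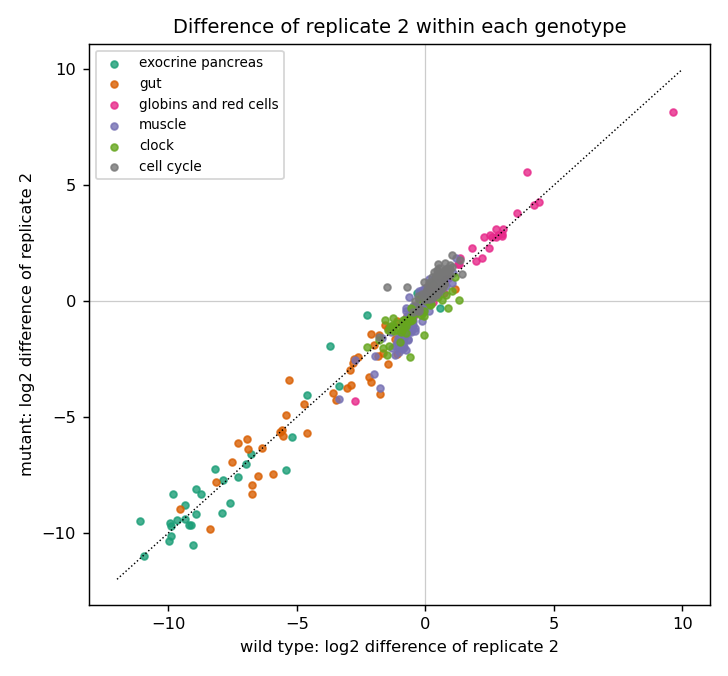
Log2 difference of replicate 2 from replicates 1 and 3 within wild type (horizontal) and within mutants (vertical) for each tested gene of the 6 programmes, coloured by programme. The dotted line marks equal differences. Pancreas and gut genes lie at the lower left, globins at the upper right, and most muscle and cell cycle genes near the centre. The median difference was larger in size within mutants than within wild type for every programme except the pancreas.

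Genes were also ranked by size among those that were called, moved in the same direction in both genotypes and had a mean of at least 100. Genes with a clone name as symbol in the table were left out. The mean was over all 6 libraries, so a gene could pass only through the group where it was high. All of the decreases listed passed only through replicates 1 and 3. hbbe3, dao.1, p4ha1b, he1.1, hbae5 and apobb.2 passed only through replicate 2. The 10 largest decreases were c6ast4, ela2l, ela2, prss59.1, sycn.2, ela3l, ctrl, cpa1, cel.1 and chia.2, all members of the pancreas or gut lists. ctrb.2 and ctrb.3, which the table lists under clone names, had log2 differences of -10.97 and -9.38 and stood outside this ranking. Among the 10 largest increases, hbbe3, slc4a1a, alas2 and hbae5 are red cell genes, and 6 others are not in the 6 lists. dao.1, a D-amino acid oxidase, had 1591 and 778 against 11.0, 8.28, 7.8 and 4.42 (log2 difference 7.03, limma adjusted p = 4.47e-06). serpinh1b and p4ha1b, a collagen chaperone and a collagen-modifying hydroxylase, had 2369 and 4199 against 492, 88.1, 578 and 66.2 and 1152 and 1076 against 122, 75.7, 70.18 and 44.9, with replicate 3 the lowest in each genotype. fabp11b, a fatty acid binding protein, had 988 and 1814 against 157, 155, 81.9 and 77.3, and apobb.2, a lipoprotein scaffold gene, 420.3 and 155 against 56.9, 31.3, 7.15 and 14.7. he1.1, a hatching enzyme that dissolves the egg envelope, had 116 and 365 against 32.0, 85.7, 1.3 and 8.1, so that wild-type replicate 3 came near wild-type replicate 2 (limma adjusted p = 0.037). The hatching gland list that holds it was split, with 3 of 5 genes higher and 2 lower. The tested genes of that list summed to 2312 and 2739 against 3133, 3372, 2922 and 4487.

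**Figure D5:**
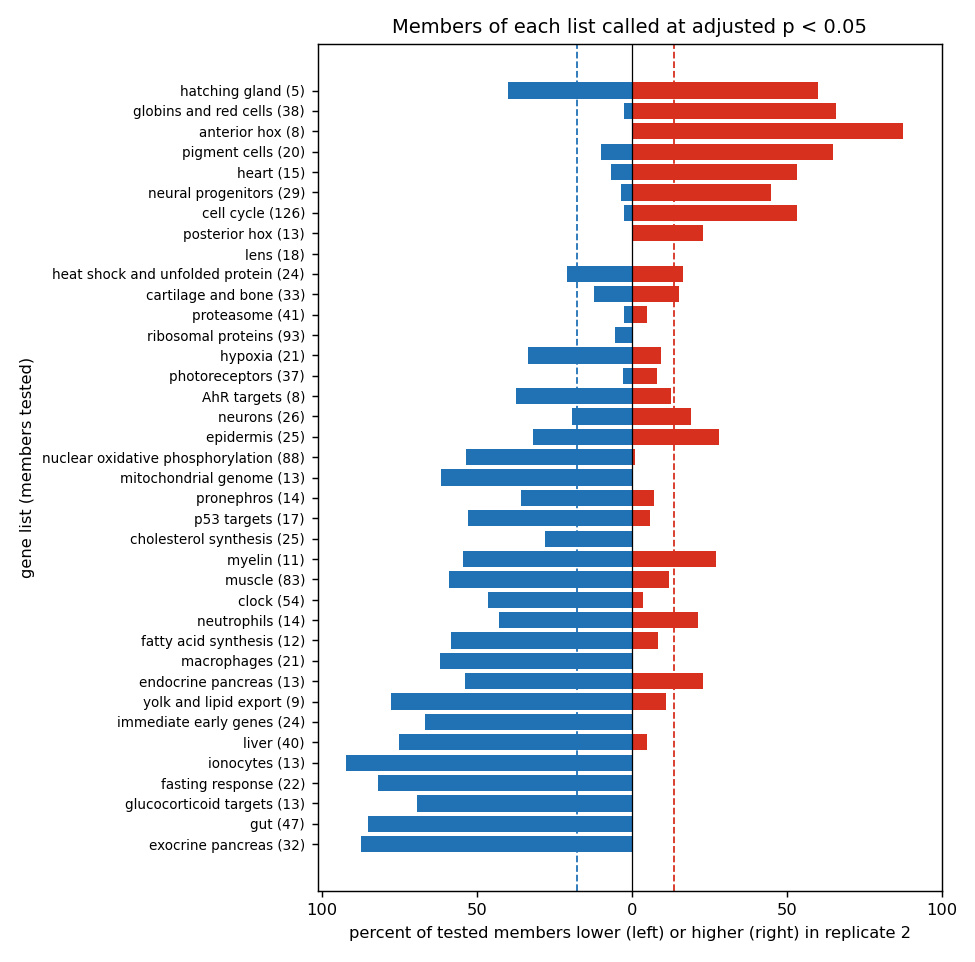
Percentage of tested members called lower (blue, left) or higher (red, right) in replicate 2 for 38 gene lists, with the number tested in parentheses and lists ordered by median log2 difference. Dashed lines mark the percentages over all genes tested, 17.8% lower and 13.7% higher.

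Markers of other organs gave further values beside these programmes. Liver genes were lower in 30 of 40 cases and higher in 2, with a median log2 difference of -1.12. fabp10a, the liver fatty acid binding protein, had 214 and 129.6 against 5253, 5447, 4554 and 4020.1 (log2 difference -4.84, limma adjusted p = 5.34e-07). ahsg2, a plasma protein, had 2.88 and 2.55 against 286, 351, 172 and 206, and 9 of the 40 liver genes were also called for genotype. The endocrine pancreas list was mixed, with 7 of 13 lower and 3 higher (2 and 1 without mutant replicate 2, 6 and 0 without wild-type replicate 2). Its hormones sst2, gcga and ins were lower, ins with 81.3 and 26.8 against 259, 167, 150.1 and 109.7 (log2 difference -1.78, limma adjusted p = 0.0028). The whole list held 0.0295% and 0.0247% of normalized counts in replicate 2 and 0.0217% to 0.0272% in the other pools. Ionocyte genes, of the skin cells that take up ions, were lower in 12 of 13 cases (7 without mutant replicate 2), with trpv6, a calcium channel, at 444 and 436 against 1892, 2867, 3001 and 4854. Macrophage genes were lower in 13 of 21 cases and higher in 0 (5 lower with the wild-type library of replicate 2 left out, 7 with the mutant one), with grn1, a granulin, at 10.4 and 12.8 against 88.3, 101, 48.1 and 64.8.

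Other lists had more members higher than lower, and several counts rested on 1 library. Pigment cell genes were higher in 13 of 20 cases, with pmelb, a melanosome matrix protein, at 299 and 199 against 6.97, 16.0, 9.75 and 9.57 and gch2, a pteridine enzyme, at 2639 and 4450.1 against 376, 378, 719 and 994. Heart genes were higher in 8 of 15 cases, and in 1 without mutant replicate 2, with myh7, a myosin heavy chain, at 1962 and 1966 against 1230.5, 973, 745 and 702 (limma adjusted p = 0.0022). Neural progenitor genes were higher in 13 of 29 cases and lower in 1 (5 higher without mutant replicate 2, 6 without wild-type replicate 2), with neurog1 at 85.3 and 65.8 against 26.7, 26.6, 22.1 and 24.3. Anterior hox genes were higher in 7 of 8 cases, hoxb3a having 1365 and 1231 against 593, 486, 544 and 423. Posterior hox genes were higher in 3 of 13 (23.1%, against 13.7% of all genes). When either replicate 2 library was left out these counts were 4 and 0, and without wild-type replicate 3 posterior hox genes had 1. The myelin list was instead lower in 6 of 11 cases and higher in 3 (1 higher when either replicate 2 library was left out), with mbpa, a myelin basic protein gene, at 126 and 77.3 against 911, 929, 910.4 and 972 (log2 difference -3.23). The part of any of these tissues in the differences above was not tested.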

How the data were processed

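RNA-seq was done on 6 pools of zebrafish larvae (3 wild type, 3 dscaml1 mutant; polyA RNA, stranded libraries per the study's methods). The values deposited by the authors were normalized counts, a signal of read counts divided by a size factor per library; 100% of them were whole multiples of 1 read within a tolerance of 0.001, so the reads (18725190 to 23516860 per library) were recovered. The submitters' processing notes name TopHat2, HISAT2, HTSeq and GRCz11, without versions or roles, and the sources do not state whether reads were counted by strand. The authors' own columns (mean, log2 fold changes, test statistic, p-values and adjusted p-values of mutant against wild type) and 3 shorter tables selected from the same genes were not used. No column of per-sample values was left unmapped.

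Genes with a mean of at least 5 were fitted with limma 3.58.1 (trend) in R 4.3.3 on log2(normalized count + 1), with terms for genotype and replicate 2. Figures and summaries used Python 3.11.15. Two-sided p-values were Benjamini-Hochberg adjusted over 21302 genes. The fits were also run on simulated counts with planted changes, a check of the code that says nothing about the spread of these pools. Alternatives were other pseudocounts, filters and scalings, edgeR 4.0.16 and DESeq2 1.42.0 on the recovered reads, no genotype term, a replicate block and the omission of each library. Deviations from the genotype means correlated between genotypes at 0.65, 0.86 and 0.70 for equal numbers 1, 2 and 3. Between wild-type replicate 1 and mutant replicate 3 the correlation was 0.35, and between wild-type replicate 3 and mutant replicate 1 it was 0.50. Deviations within a genotype are tied to each other and number 2 was picked as standing apart, so these values do not show that the numbers paired the samples. The named genes are members of the 6 programmes, up to 4 members with the lowest adjusted p of each other list, and the 10 largest increases and decreases; fkbp5, tat, gngt2b and opn1sw2 were chosen after their values were seen. The comparison, members and lists were chosen with earlier results of these data known. Lists were described by counts and medians, with no set test. Promoter sequences were not analysed here. Values of 2 list members are not reported here.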

Additional observations from a re-analysis of the deposited data

How the results depend on the processing

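The counts of lower pancreas and gut genes and of higher red cell genes stayed within 1.5 times of the reported ones under every alternative run, and no difference of a programme member changed sign where it was called. With no genotype term the cell cycle count was 38 in place of 67. Leaving out 1 library moved the counts most. Over the 6 omissions the higher genes numbered 436 to 2596 (2917 with all libraries) and the lower genes 1433 to 3609 (3791), and with the 2-fold limit 297 to 757 and 1271 to 2122. The cell cycle count ranged from 6 to 69, the lower clock genes from 10 to 28 and the lower muscle genes from 25 to 49. The lowest of each came without mutant replicate 2. Without either replicate 2 library, which left 1 library in that group, more member results lost their call than in any other fit. With DESeq2 1 lost its call and with edgeR 4. The 380 member results include members that were not called with all libraries. On the recovered reads edgeR called 3060 genes higher and 3632 lower, and DESeq2 3141 and 3729. With the replicate block 3667 genes were higher and 4481 lower, and 30 member results gained a call. Beside the counts given with their results, the block moved lower cholesterol synthesis genes from 7 to 13, higher proteasome genes from 2 to 6 and higher hypoxia genes from 2 to 4; other counts that moved by over 1.5 times were of 2 genes or fewer. The interaction called 0 genes in each fit run. The causes were not tested. Genes near 0 in replicate 2 rest on a few reads, so their exact folds are limited by depth.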

Other observations

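Several lists of metabolic and stress states had more lower members than the background, and others did not. The fasting list, genes that rise when an animal lives on its stores, was lower in 18 of 22 cases and higher in 0, with 10 lower without mutant replicate 2. pck1, which commits carbon to glucose synthesis, had 962 and 600.2 in the replicate 2 pools against 11398, 9032, 14182 and 10968 (log2 difference -3.89, limma adjusted p = 3.75e-05). igfbp1b, an inhibitor of insulin-like growth factors, had 21.3 and 8.94 against 688, 458, 1012 and 771. Glucocorticoid targets were lower in 9 of 13 cases, with klf9 at 75.5 and 125 and 1209.6, 711, 2107 and 1201 and fkbp5, a chaperone of the glucocorticoid receptor, at 249.6 and 439 and 2029.9, 2222, 4931 and 1999.7. pck1 and tat stand in several lists, so these counts are not independent. Immediate early genes were lower in 16 of 24 cases (5 without mutant replicate 2, 10 without wild-type replicate 2), among them fosb with 6.34 and 8.94 against 43.6, 40.8, 50.04 and 47.8. Nuclear genes of oxidative phosphorylation were lower in 47 of 88 cases with a median log2 difference of -0.35, and the mitochondrial genome in 8 of 13 with -0.42. Without mutant replicate 2 these counts were 5 and 2, without wild-type replicate 2 they were 15 and 0, without wild-type replicate 3 they were 30 and 1, and without wild-type replicate 1 they were 30 and 4. The mitochondrial count was 5 with no filter on low values or no genotype term. Ribosomal protein genes were lower in 5 of 93 cases and higher in 0 (1 to 5 lower over the 6 omissions), below the share over all genes. Heat shock and unfolded protein genes, 4 higher and 5 lower of 24, were near that share, and of 21 hypoxia genes 2 were higher and 7 lower with a median log2 difference of -0.06. The heat shock list ranged from 1 to 9 higher and 1 to 5 lower over the 6 omissions and had 10 higher with the replicate block, and the hypoxia list had 1 lower without mutant replicate 2 and 4 without wild-type replicate 2.

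Photoreceptor genes had opposite signs in the genotypes. Replicate 2 was set against the log2 mean of replicates 1 and 3 of the same genotype. Of 37 genes tested, 31 were above that mean in wild type and below it in mutants, with median log2 differences of 1.11 and -1.22. The share of such genes over all genes is not given here. gngt2b and opn1sw2, a transducin subunit and a cone opsin chosen after their values were seen, gave the lowest interaction p-values of the table. gngt2b had 504 and 118 in the replicate 2 pools and 187, 230.0, 504 and 470.3 in the others, with an interaction adjusted p of 0.37 in limma. opn1sw2 had 303 and 35.8 and 53.4, 88.1, 293 and 179, with 0.82. Neither passed the test, and each genotype held 1 replicate 2 pool.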
